A study of Mus musculus with 2 samples.

Results

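The cells described here are those that the authors' cell table calls INTERMEDIATE, in 2 single-cell RNA libraries of sorted endothelial cells from mouse sciatic nerve. A cell was taken when the table gave it that class and its barcode matched the library's count matrix, and it was left out when the same barcode also occurred in the other library. This gave 119 INTERMEDIATE cells, 39 in the intact library and 80 in the injured library, of 161 with that class and of 3641 barcodes in all. They were set beside the 1849 unshared cells of the 9 classes whose names begin with EC_ (652 intact and 1197 injured), called EC_ cells here. The sources used here do not say how the class was made or what it lies between, so the cells are called by the authors' label.

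The study profiled nerve endothelial cells before and after injury. Both groups were adult mice carrying Cdh5(PAC)-CreERT2, an inducible Cre under the promoter of the VE-cadherin gene, and the R26-TomatoLSL reporter, and from both the tdTomato-positive, CD45-negative fraction was sorted. The intact library came from pooled sciatic nerves with no injury, and the injured library from the tissue bridge that fills the lesion site, taken at day 7. The reporter marks cells in which the Cdh5 promoter was active when Cre was induced and their descendants, so it limits the sort to that lineage and to whatever else passed the gate. Each condition was 1 library of pooled animals. No test was therefore made, and all 95% intervals below cover counting error only. Injury cannot be told apart from differences of animals, sort or sequencing run.

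Endothelial cells line blood vessels and hold together through junction proteins such as VE-cadherin and PECAM-1. Mural cells, the pericytes and smooth muscle cells, wrap the vessel from outside, and fibroblasts build the collagen matrix around it. In a nerve the vessels inside the endoneurium form a barrier with their own transporters, and perineurial cells close off the nerve bundle. The 4 genes used to check the class come from these types: Cdh5 and Pecam1 from endothelial cells, Rgs5 from mural cells and Dcn from fibroblasts.

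The libraries held 9401203 UMIs (unique molecules counted) in 1618 barcodes and 27157892 UMIs in 2023 barcodes, with medians of 3932.5 and 8918 UMIs. They shared 298 barcodes. Of the cells with the class INTERMEDIATE, 9 intact and 33 injured ones had such a partner and were left out, and 25 of these 33 held under 0.2 of their partner's UMIs.

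The INTERMEDIATE class made up 5.64% of the unshared annotated cells of the intact library (39 of 691, exact 95% interval 4.04 to 7.64%) and 6.26% of the injured library (80 of 1277, 5.00 to 7.74%). The ratio of the injured to the intact share was 1.11 (0.748 to 1.67), so a difference was not detectable at these cell numbers. This ratio depended on which cells entered: among cells of at least 1000 UMIs it was 1.73, and among cells with under 5% mitochondrial UMIs it was 0.368, with the injured share at 1.98%.

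Both endothelial markers and markers of other cell types were found in INTERMEDIATE cells. Levels are given as CPM, a gene's UMIs summed over the cells of a group and scaled to a common total. Cdh5, which encodes VE-cadherin (ENSMUSG00000031871.9, GRCm38 chr8:104101625-104144511, plus strand), was at 809 CPM in the intact INTERMEDIATE cells (95% interval 618 to 1042, 60 UMIs) and at 862 CPM in the injured ones (746 to 990, 199 UMIs). EC_ cells held 850 and 1113 CPM, giving ratios of 0.952 (0.725 to 1.23) and 0.775 (0.670 to 0.891). In both libraries at least 1 EC_ class lay below them: intact EC_VEN-PV-, EC_BAR, EC_VEN-PV+ and EC_ART at 537 to 769 CPM, and injured EC_VEN-PV- at 803 CPM.

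Pecam1, a junctional adhesion molecule (ENSMUSG00000020717.19, chr11:106654217-106750628, minus strand), was at 661 CPM (489 to 874, 49 UMIs) in intact and 849 CPM (734 to 976, 196 UMIs) in injured INTERMEDIATE cells. The ratios to EC_ cells were 0.664 (0.490 to 0.8795) and 0.940 (0.812 to 1.08). Intact EC_VEN-PV- (514 CPM) and EC_BAR, and injured EC_PROLIF (702 CPM) and EC_IMMAT (770 CPM), had lower values. The summed level of INTERMEDIATE cells was thus within the range of the EC_ classes for both genes. In the intact class these sums rested on few cells, with most UMIs of each gene in 4 cells. Cdh5 was found in 18 and Pecam1 in 17 of the 39 intact cells.

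Rgs5, a regulator of G protein signalling typical of pericytes (ENSMUSG00000026678.10, chr1:169655501-169695813, plus strand), was at 971 CPM (760 to 1223, 72 UMIs in 14 of 39 cells) in the intact class and at 56.3 CPM (30 to 96.3, 13 UMIs in 3 of 80 cells) in the injured class. EC_ cells held 55.3 and 5.33 CPM. The ratios were 17.6 (13.2 to 23.2) and 10.6 (5.41 to 19.0), and the EC_ classes with most Rgs5 reached 197 CPM (intact EC_CAP-PV-) and 13.6 CPM (injured EC_PROLIF). Rgs5 was therefore above every EC_ class in both libraries, but in the injured one 9 of its 13 UMIs came from 1 cell.

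Dcn, which encodes the matrix proteoglycan decorin (ENSMUSG00000019929.16, chr10:97479609-97518143, plus strand), was at 1821 CPM (1527 to 2156, 135 UMIs) in intact and 697 CPM (594 to 814, 161 UMIs) in injured INTERMEDIATE cells, against 50.1 and 7.99 CPM in EC_ cells. The ratios were 36.4 (28.7 to 46.0) and 87.2 (68.8 to 111). These sums rested on few cells: UMIs of Dcn were found in 5 of 39 intact and 9 of 80 injured cells, and 1 cell held 72.6% of them in the intact and 91.3% in the injured library. Among cells with under 5% mitochondrial UMIs the intact log2 ratio turned from 4.93 to -2.41, and without the cell with the most UMIs the injured one went from 5.30 to 2.14.

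The reporter transcript TdTomato had 3 UMIs (40.5 CPM, 8.35 to 118) in the intact and 29 UMIs (126 CPM, 84.1 to 180) in the injured INTERMEDIATE cells, where EC_ cells had 79.9 and 102 CPM. At these counts the intact value did not differ from EC_ cells beyond counting error.

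**Figure D1:**
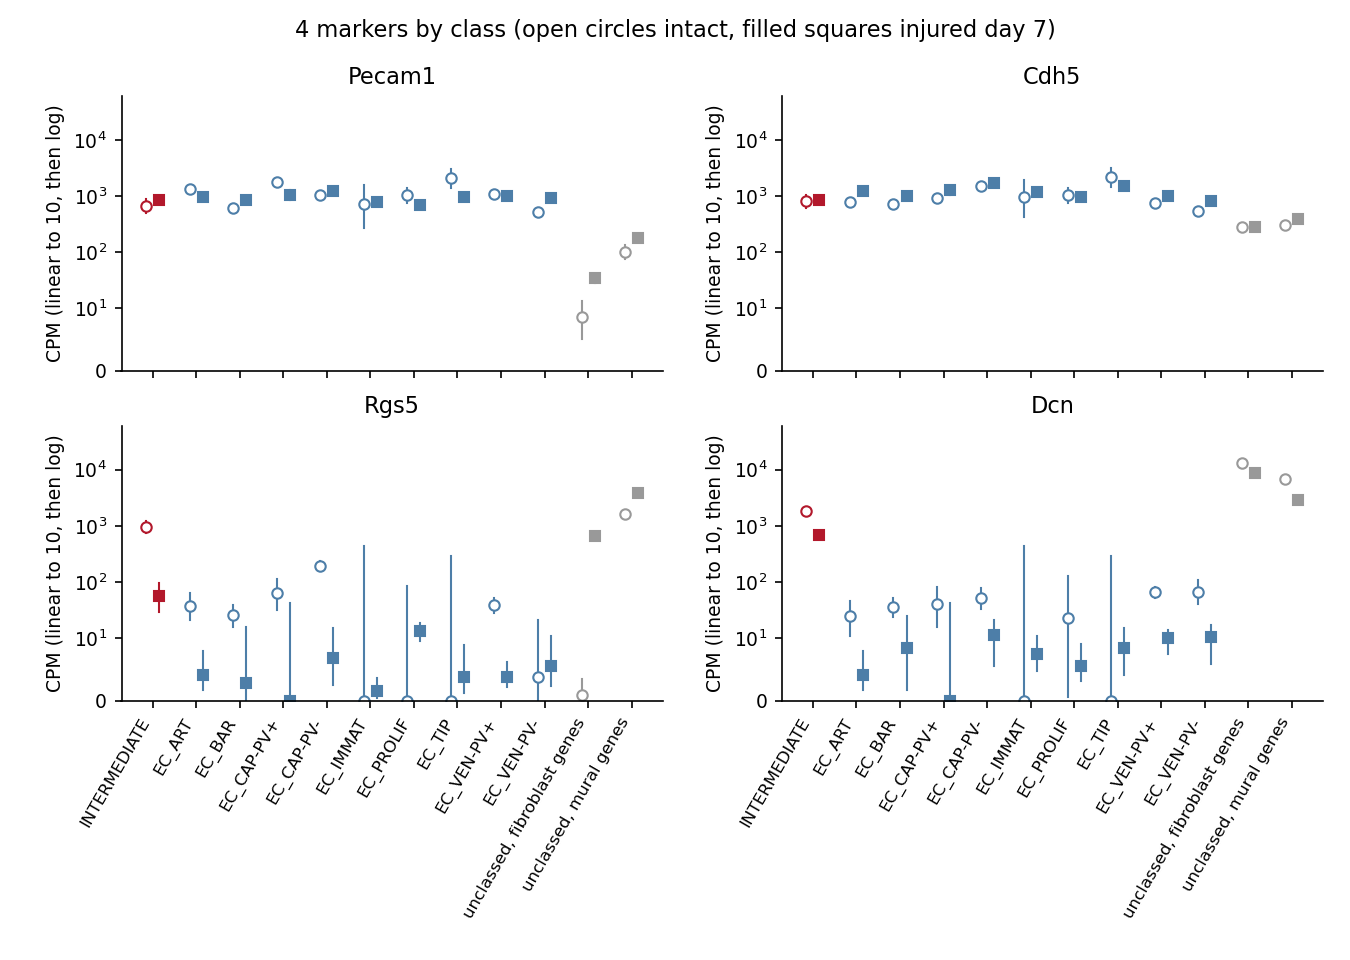
CPM of Pecam1, Cdh5, Rgs5 and Dcn in INTERMEDIATE and each EC_ class (axis linear up to 10 CPM, then logarithmic). Grey points are barcodes without a class that held at least 4 fibroblast or at least 4 mural genes. They had at least 1000 UMIs and more UMIs of that list than of pan-endothelial marker genes. Open circles are the intact and filled squares the injured library, and bars are exact 95% Poisson intervals. INTERMEDIATE lies among the EC_ classes for Pecam1 and Cdh5 and above them for Rgs5 (971 and 56.3 CPM) and Dcn (1821 and 697 CPM).

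Shares of cells with a UMI depend on depth, so cells were also thinned at random to 1000 UMIs, which left 19 intact and 65 injured INTERMEDIATE cells (20 and 15 were shallower) and 616 and 1194 EC_ cells (36 and 3 shallower). After thinning, Rgs5 was found in 47.4% of intact INTERMEDIATE cells and 2.92% of EC_ cells, and before thinning in 35.9% and 5.83%. Among injured cells the thinned values were 3.08% and 0.67%, and the unthinned ones 3.75% and 4.59%, an order that went against the CPM. Among barcodes without a class that held at least 4 fibroblast genes, a type that should lack Rgs5 in the intact nerve (median 5413.5 UMIs), no thinned intact cell held it. These barcodes were picked to have at least 1000 UMIs and more UMIs of fibroblast than of pan-endothelial marker genes. The injured barcodes of that kind (median 10520 UMIs) held it in 9.47%, with 2060 UMIs in 29 of 243 of them before thinning, so they give no background level for the injured library.

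Cdh5 was found in 47.4% of thinned intact INTERMEDIATE cells and 53.9% of EC_ cells (46.2% and 88.5% before thinning), and Pecam1 in 31.6% and 61.9% (43.6% and 89.1%). The injured thinned shares were 61.5% and 65.0% for Cdh5 (77.5% and 98.9% before) and 47.7% and 59.5% for Pecam1. The fibroblast-gene barcodes gave 21.5% and 25.5% for Cdh5 and 0.282% and 1.23% for Pecam1 (injured median 10520 UMIs). They were picked to hold fewer pan-endothelial than fibroblast UMIs, so they give no independent background for either gene. Dcn was found in 10.5% and 4.62% of thinned INTERMEDIATE cells and in 5.36% and 0.838% of EC_ cells. Before thinning it was 12.8% against 18.3% in the intact library and 11.3% against 9.77% in the injured one, and the intact order again went against the CPM.

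INTERMEDIATE cells were the shallowest class in both libraries. The intact ones had a median of 984 UMIs (quartiles 712 and 1994.5, range 549 to 9445) against 4039 in EC_ cells, and the injured ones 2127.5 UMIs (quartiles 1318.75 and 3344.25, range 536 to 29330) against 10949. The EC_ medians were 4.10 and 5.15 times higher. Of single EC_ classes the lowest medians were 2036.5 UMIs in intact EC_IMMAT, a class of 4 cells there, and 5208 UMIs in injured EC_CAP-PV+. Only 5.37% of intact and 1.92% of injured EC_ cells lay below the INTERMEDIATE median of their library. Genes per cell followed, with medians of 540 against 1729 and of 1011.5 against 3324.

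**Figure D2:**
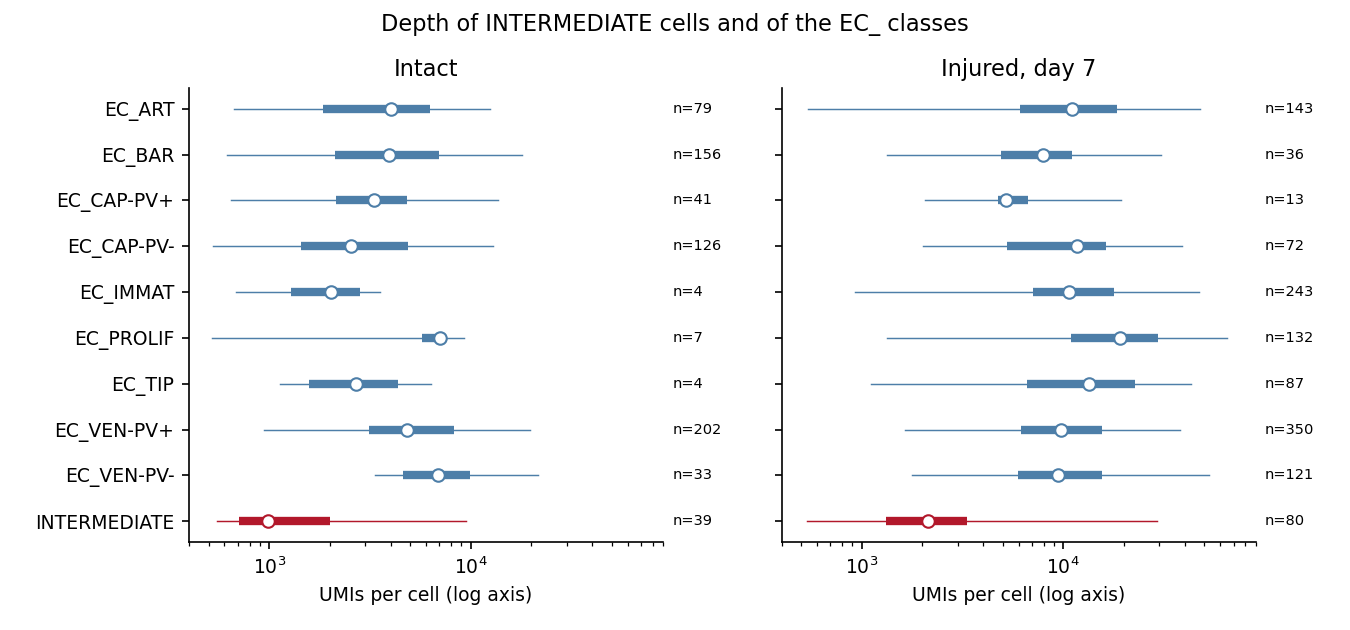
UMIs per cell (log axis) by class and library. Dots are medians, thick lines the quartiles and thin lines the range. INTERMEDIATE has the lowest median in both libraries, 984 UMIs in the intact and 2127.5 in the injured one.

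These depths limit what single genes can show. All intact INTERMEDIATE cells together held 74125 UMIs, so 1 UMI was worth 13.5 CPM, and the injured ones held 230920, so 1 UMI was worth 4.33 CPM. Only 10 of 39 intact and 41 of 80 injured cells had at least 2000 UMIs.

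The INTERMEDIATE class also had more cells rich in mitochondrial RNA, a common measure of RNA quality. The median mitochondrial share was 6.64% of a cell's UMIs in intact INTERMEDIATE cells (quartiles 1.84 and 11.8%, highest 18.1%) against 5.11% in EC_ cells, and 8.88% in injured ones (5.52 and 13.9%, highest 19.8%) against 3.62%. At least 10% was reached by 14 of 39 intact (35.9%) and 37 of 80 injured (46.3%) INTERMEDIATE cells, but by 6.90% and 2.51% of EC_ cells. The intact INTERMEDIATE cells spread to both sides of the EC_ values, their lower quartile of 1.84% lying below that of EC_ cells (3.48%) and their upper quartile above it (11.8% against 6.91%).

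A group of transcripts of ribosomal RNA separated the injured INTERMEDIATE cells from EC_ cells in the same way. It was put together after the values were seen and holds mt-Rnr1 and mt-Rnr2, the mitochondrial ribosomal RNAs, which count in the mitochondrial share too, and Gm42418, Gm26917, AY036118, Lars2 and Mir6236. Reads of the last 5 can stem from ribosomal RNA or similar sequence, so their assignment to a gene is uncertain. The group took up a median of 3.97% of UMIs in intact INTERMEDIATE cells (quartiles 0.642 and 11.4%, highest 37.2%) against 6.82% in EC_ cells, and 11.8% in injured ones (6.16 and 19.9%, highest 46.7%) against 3.07%. Summed over cells its ratio to EC_ was 0.991 (0.963 to 1.02) in the intact and 4.37 (4.32 to 4.42) in the injured library. In the injured class Gm42418 was 7.72-fold, mt-Rnr1 3.33-fold and mt-Rnr2 2.84-fold higher than in EC_ cells.

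EC_ cells within the UMI quartiles of the INTERMEDIATE class (116 intact and 61 injured cells) were used to see these shares at nearer depth. They are called EC_ cells of like depth, but their median UMIs of 1404 and 2434 stayed above 984 and 2127.5 in INTERMEDIATE cells. In ratios of sums only the EC_ side was limited in this way, and all INTERMEDIATE cells stayed in. The medians of these EC_ cells were 5.54% and 5.45% for mitochondrial RNA and 8.43% and 6.21% for the ribosomal RNA group. The injured INTERMEDIATE medians of 8.88% and 11.8% stayed above them. Cells with at least 10% of both kinds made up 28.2% of intact (11 of 39, 15.001 to 44.9%) and 40% of injured INTERMEDIATE cells (32 of 80, 29.2 to 51.6%), against 6.13% and 1.67% of EC_ cells. The part of RNA quality in the results below was not tested.

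**Figure D3:**
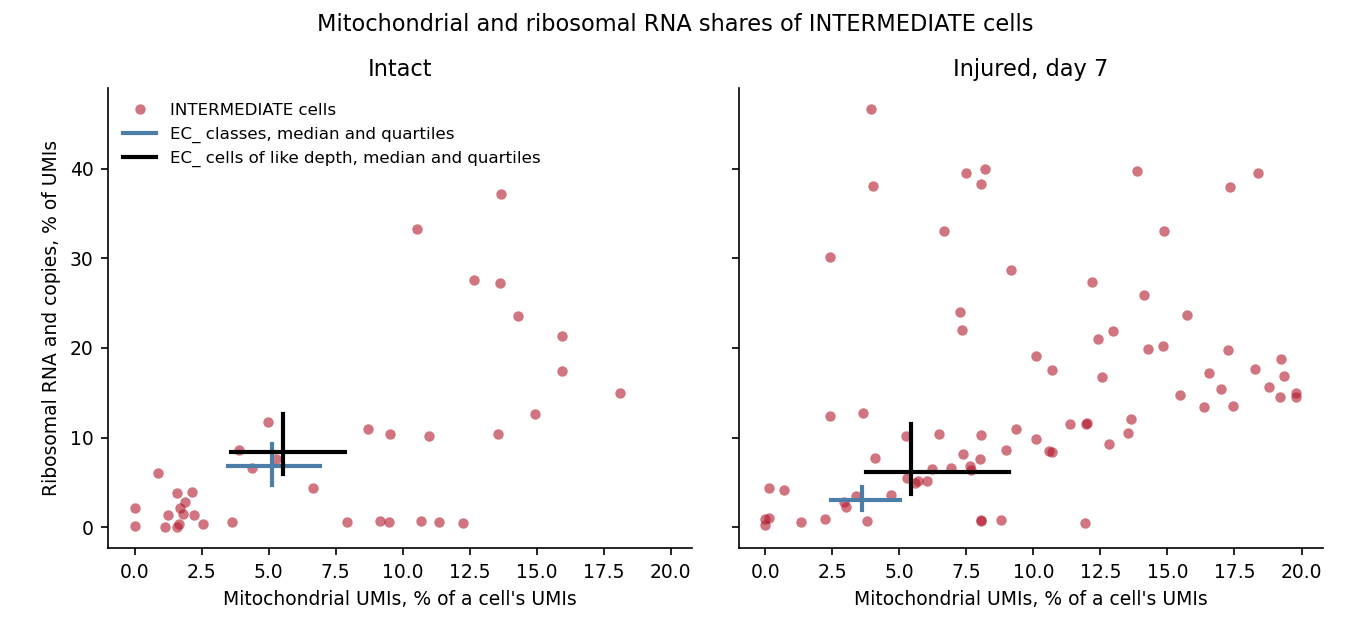
Share of a cell's UMIs from mitochondrial genes (x axis, percent) and from the ribosomal RNA group (y axis, percent). Points are INTERMEDIATE cells, and the blue cross gives the median and quartiles of EC_ cells. The black cross gives those of EC_ cells of like depth, meaning within the UMI quartiles of the INTERMEDIATE class. Injured INTERMEDIATE cells reach 19.8% mitochondrial and 46.7% ribosomal RNA.

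The marker list of endothelial cells was below the EC_ level in the intact library and near it in the injured one. Its 15 genes summed to 8675 CPM in intact INTERMEDIATE cells and 11451 CPM in EC_ cells, a ratio of 0.758 (0.6997 to 0.819). The injured sums were 8774 and 8234 CPM, a ratio of 1.07 (1.02 to 1.11). The injured direction was not stable: the ratio was 0.996 as a mean of per-cell values and 0.794 against EC_ cells of like depth. All 15 genes passed the filter used across genes (a mean of at least 50 CPM in the groups compared), and none differed by 2-fold in either library. Egfl7, a secreted vessel protein, was at 540 CPM in intact INTERMEDIATE cells against 1049 CPM in EC_ cells, and at 1277 against 874 CPM in the injured library. Eng, a TGF-beta co-receptor, was likewise below EC_ cells in the intact library (324 against 629 CPM) and above them in the injured one (996 against 722 CPM). Cldn5, the main claudin of tight junctions in barrier endothelium, was slightly lower in both, at 2105 against 2332 and 507 against 617 CPM.

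Across all genes that passed that filter, 6.23% (191 of 3067) were at least 2-fold higher and 5.77% (177 of 3067) at least 2-fold lower in intact INTERMEDIATE than in EC_ cells, after adding 10 CPM to both values. Of the genes tested in injured cells 3.35% (104 of 3105) were higher and 5.38% (167 of 3105) lower. With size factors by the median of ratios the injured split was 144 higher and 110 lower, so the higher share of the calls moved from 38.4% to 56.7%. The members of a list that passed only through the group where they are high had to differ, so the counts below describe and support nothing.

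Fibroblast genes summed to 2307 CPM in intact and 1555 CPM in injured INTERMEDIATE cells, against 88.2 and 56.4 CPM in EC_ cells, ratios of 26.2 (21.5 to 31.7) and 27.6 (24.3 to 31.2). Of the 12 genes, 5 passed the filter in the intact and 4 in the injured library, and each of these was higher by 2-fold or more (medians of the log2 ratio 3.07 and 3.95, where all genes had 0.04 and -0.09). Dcn gave 135 of the 171 intact and 161 of the 359 injured UMIs. Col3a1, a fibrillar collagen, was at 121 CPM in intact INTERMEDIATE cells (9 UMIs in 8 cells) against 6.76 CPM, and at 325 CPM in injured ones (75 UMIs in 5 cells) against 8.61 CPM. Col1a2, a chain of type I collagen, was at 135 against 3.07 CPM in the intact library, from 10 UMIs in 7 cells.

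Mural genes differed between the libraries. They summed to 2887 CPM in intact INTERMEDIATE cells and 1053 CPM in EC_ cells (2.74, 2.38 to 3.15), and to 446 and 516 CPM in the injured library (0.864, 0.705 to 1.05). Of the 14 genes, 9 passed the filter in the intact library and 6 were higher by 2-fold or more (median log2 ratio 3.30). Only 2 passed in the injured library, 1 of them 2-fold lower. Acta2, smooth muscle actin, was at 459 against 241 CPM in the intact and 21.7 against 49.7 CPM in the injured library. Mcam, an adhesion molecule that endothelial cells also express, was nearly level in the injured library, at 264 and 274.7 CPM. Tagln, an actin binding protein of smooth muscle, was lower than in EC_ cells in both, at 0.518 and 0.446 times. The injured ratio of the list was 0.422 against EC_ cells of like depth and 0.481 among cells with under 5% mitochondrial UMIs.

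Genes of perineurial cells, among them the glucose transporter Slc2a1 and the integrin Itgb4, summed to 958 against 527 CPM in the intact library (1.82, 1.41 to 2.31) and to 195 against 160 CPM in the injured one (1.22, 0.885 to 1.63). Slc2a1 is also a gene of barrier endothelium and stands in that list too. Genes of endoneurial mesenchymal cells had ratios of 19.8 (7.92 to 45.4) and 17.6 (12.5 to 24.2). These came mostly from 7 UMIs of Sox9, a transcription factor, in the intact library and from 44 UMIs of Spp1, osteopontin, in 4 cells of the injured library. In the injured class 1 cell, that of 29330 UMIs, held 91.7% of the list's 48 UMIs.

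Markers of blood cells were close to 0 in INTERMEDIATE cells of both libraries. The myeloid list had 1 UMI in each, the neutrophil list 0 and 1, the leukocyte list with Ptprc 0 and 3, the lymphoid list 1 and 0, the red cell list 0 and 3, and the platelet list 1 and 3. Lymphatic endothelial genes had 9 and 7 UMIs. Schwann cell genes had ratios of 0.744 (0.497 to 1.07) and 1.45 (1.08 to 1.91), and in the injured library 43 of their 51 UMIs lay in 1 cell.

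**Figure D4:**
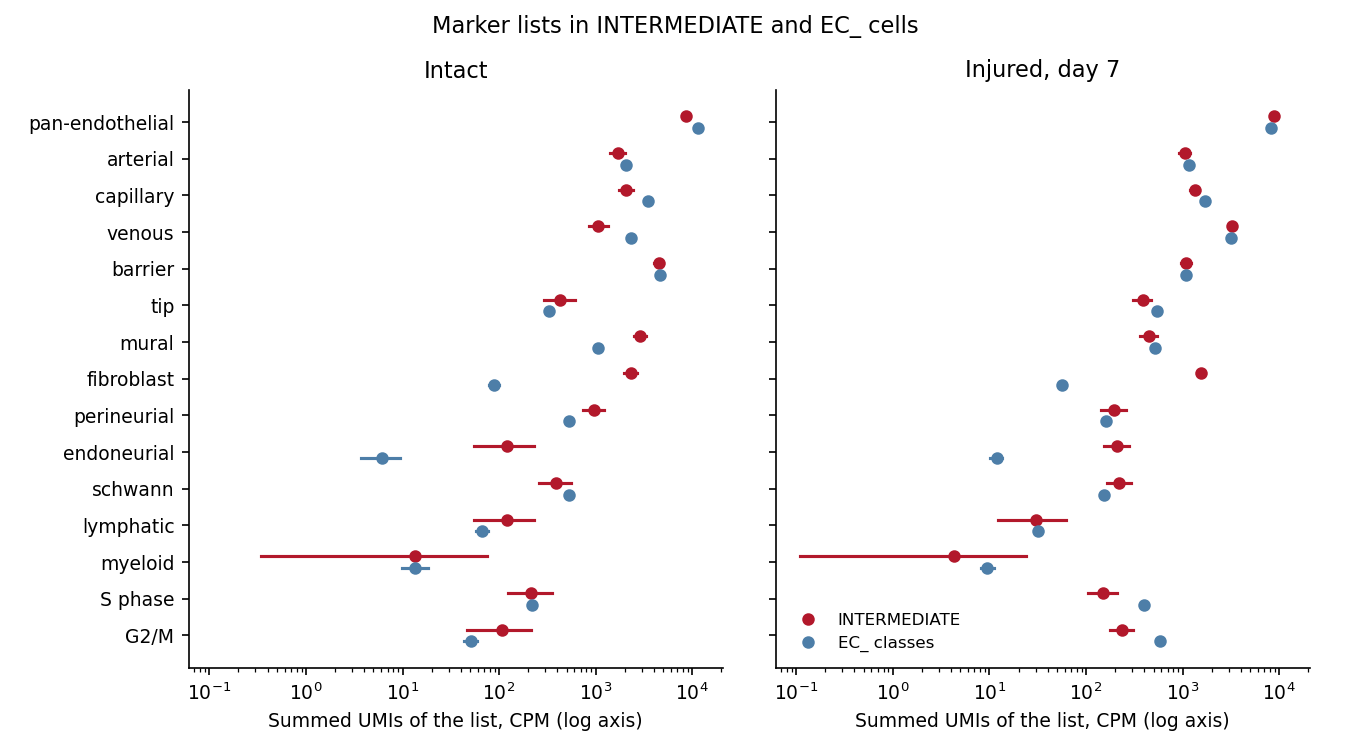
Summed CPM (log axis) of 15 marker lists in INTERMEDIATE and EC_ cells of each library, with exact 95% Poisson intervals. The fibroblast list lies above EC_ in both libraries (2307 against 88.2 and 1555 against 56.4 CPM), and the mural list in the intact library (2887 against 1053 CPM). The pan-endothelial list lies below EC_ in the intact library and near it in the injured one.

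The lists of endothelial subtypes placed the class unevenly. In the intact library venous genes were at 0.464 times the EC_ level (0.367 to 0.579, 1066 against 2298 CPM) and capillary genes at 0.596 times (0.505 to 0.699), while barrier genes were level (0.967, 0.865 to 1.08). Of the 7 venous genes that passed the filter 3 were at least 2-fold lower, among them Lrg1, a secreted glycoprotein, at 243 against 772 CPM, and Selp, P-selectin, at 108 against 424 CPM. Injured venous genes were level (3226 against 3147 CPM, 1.03, 0.953 to 1.10), capillary genes lower (0.776, 0.692 to 0.869) and barrier genes level (0.994, 0.874 to 1.13). Arterial genes had ratios of 0.822 and 0.8998, and tip cell genes 1.32 (0.902 to 1.88) and 0.713 (0.572 to 0.878). Several of these sums rested heavily on 1 cell. The injured cell of 29330 UMIs held 33.9% of the barrier and 44.9% of the arterial UMIs of its class. In the intact class 1 cell of 5161 UMIs held 47.1% of the capillary UMIs. Another of 9445 UMIs held 46.9% of the tip cell UMIs.

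Cell cycle genes were low in the injured class. Genes of G2 and M phase had a ratio of 0.401 (0.301 to 0.524) to EC_ cells and S phase genes 0.378 (0.263 to 0.526), with proliferating cells of class EC_PROLIF among the EC_ cells. In the intact library the ratios were 2.12 (0.898 to 4.27) and 0.982. At least 2 different G2/M genes were found in 6 of 80 injured INTERMEDIATE cells (7.5%) against 24.7% of EC_ cells, which were deeper.

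Whether endothelial and other markers met in the same cell was counted after thinning to 2000 UMIs, a mixed cell being one with at least 2 pan-endothelial genes and at least 2 genes of another cell type's list. In the intact library 7 of 10 INTERMEDIATE cells were mixed (70%, 34.8 to 93.3%) against 83 of 521 EC_ cells (15.9%). For the injured cells it was 6 of 41 (14.6%, 5.57 to 29.2%) against 164 of 1178 (13.9%). All 7 intact mixed cells were so by the mural list. The thinning left out 29 intact and 39 injured INTERMEDIATE cells as too shallow. At 1000 UMIs the shares were 36.8% against 8.28% and 10.8% against 4.94%. Without thinning they were 30.8% against 34.5% and 13.75% against 56.1%, EC_ cells being deeper.

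Looking at single cells after their values were seen showed that the class held several kinds of cell, which are described here with no test. In the intact library 6 of 39 cells (15.4%, 5.86 to 30.5%) had at least 5 mural and at least 8 pan-endothelial genes. They were 6 of the 7 deepest intact cells, with 9445, 6478, 6046, 5161, 3544 and 3052 UMIs, and held 10, 8, 6, 9, 7 and 5 of the 14 mural genes and 12, 12, 14, 12, 8 and 9 of the 15 endothelial genes. Their Rgs5 UMIs were 19, 7, 10, 6, 7 and 1, their Cdh5 UMIs 9, 6, 5, 13, 3 and 0, and their mitochondrial shares 1.27 to 3.90%. None of them held Dcn. These 6 cells gave 72.4% of the mural UMIs of the intact class and 45.5% of all its UMIs.

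Cells of that kind were rare in the other annotated groups: 6 of 652 intact EC_ cells (0.920%), 4 of 1197 injured EC_ cells (0.334%, with 20441 to 37099 UMIs) and 0 of 80 injured INTERMEDIATE cells, which allows a share of up to 3.75%. Barcodes without a class are not part of this count. Without the 6 cells the intact mural ratio to EC_ was 1.39 (1.05 to 1.79) in place of 2.74, and the barrier ratio 0.531 (0.432 to 0.646) in place of 0.967. Leaving out cells picked for their mural genes had to lower the mural ratio. A further intact cell of 903 UMIs held 7 mural genes with 16 UMIs and no endothelial gene. In the injured class 1 cell of 2279 UMIs held 5 mural and 6 endothelial genes.

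Fibroblast UMIs were held by few cells too. In the intact class 3 cells had at least 10, with 114, 23 and 15 fibroblast UMIs at depths of 5526, 1083 and 569, Dcn at 98, 20 and 13 UMIs, and at most 1 endothelial gene. They gave 88.9% of the list's UMIs, and their mitochondrial shares were 9.49 to 18.1%. In the injured class 3 cells had 312, 10 and 19 fibroblast UMIs at depths of 29330, 974 and 578 and gave 94.99% of the list's UMIs. The deepest of them held all 15 endothelial genes, 147 UMIs of Dcn and 44 UMIs of the endoneurial list, while the other two held 0 and 2 endothelial genes. Without these cells the fibroblast ratios to EC_ were 3.22 (1.91 to 5.12) in the intact and 1.60 (0.942 to 2.54) in the injured library. Leaving out cells picked for their fibroblast UMIs had to lower these ratios.

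Cells with at least 2 G2/M genes differed between the libraries. The 3 intact ones had 1431, 1395 and 796 UMIs, at most 1 endothelial gene and mitochondrial shares of 0 to 1.58%. The 6 injured ones had 704 to 6868 UMIs, 4 to 12 endothelial genes and mitochondrial shares of 0 to 19.2%. Cells with at least 5 endothelial genes, under 2 mural and under 2 fibroblast genes numbered 17 of 39 intact (43.6%, median 890 UMIs) and 56 of 80 injured cells (70%, median 2549 UMIs), 5 of the 6 injured cells with G2/M genes among them. Their median mitochondrial shares were 10.5% and 9.25%, and the ribosomal RNA group took up 10.4% and 14.6%. Nearly all members held some endothelial RNA: 35 of 39 intact and 79 of 80 injured cells had at least 1 pan-endothelial UMI, and the median share of such UMIs per cell was 1.03% against 1.15% in intact EC_ cells and 0.806% against 0.831% in injured ones. A single UMI does not set a cell apart. Cdh5 alone was found in 69.2% of intact and 78.6% of injured fibroblast-gene barcodes, which were deeper.

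**Figure D5:**
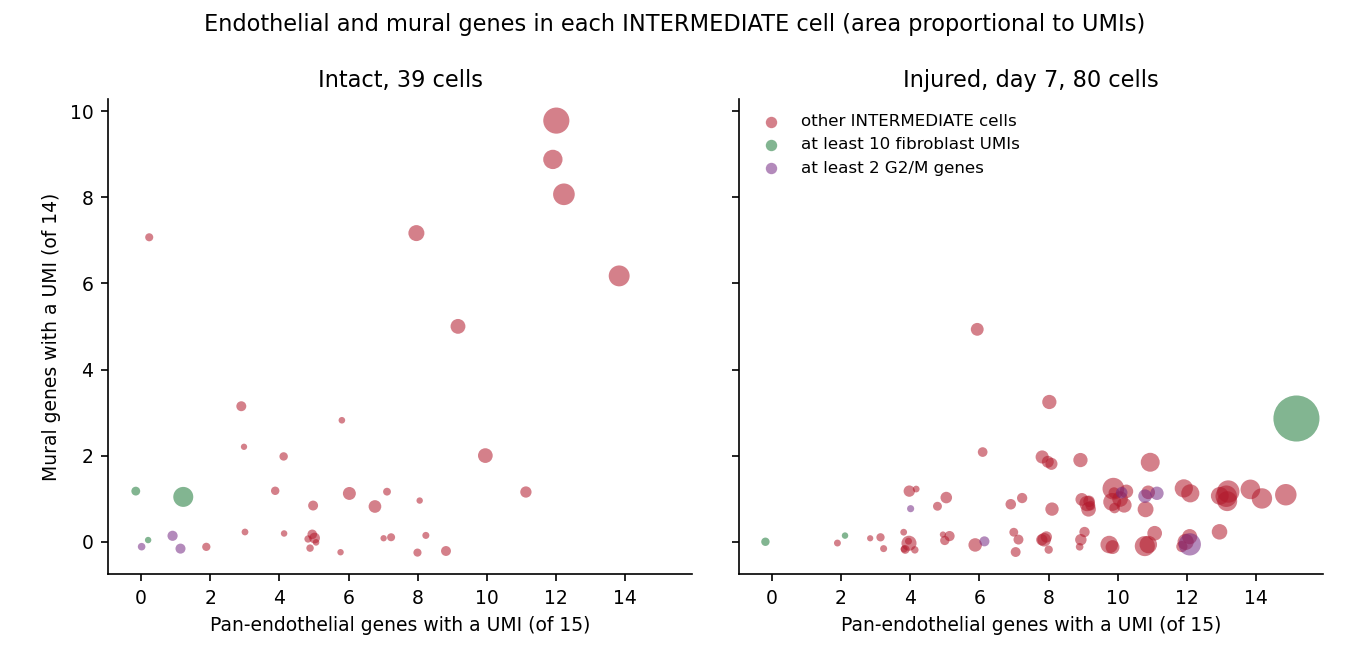
Number of pan-endothelial genes (x axis, of 15) and mural genes (y axis, of 14) detected in each INTERMEDIATE cell, by library, not thinned. Each point is a cell, shifted slightly for visibility, with an area that grows with its UMIs. Green points have at least 10 fibroblast UMIs and purple ones at least 2 G2/M genes. The 6 intact cells with at least 5 mural and 8 endothelial genes stand at the upper right, and no injured cell does.

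The position among other cells was measured from the 15 nearest neighbours in gene expression, each library on its own. The neighbours of intact INTERMEDIATE cells were 18.1% INTERMEDIATE, 53.2% EC_ and 28.7% barcodes without a class, where these made up 2.95%, 49.4% and 47.7% of possible neighbours. For injured cells the values were 23.0%, 55.9% and 21.1%, against 4.64%, 69.4% and 26.0%. EC_ cells had EC_ neighbours at 98.1% and 98.7%. The EC_ class most frequent around INTERMEDIATE cells was EC_BAR in the intact library (22.4% of neighbours, 11.8% of cells) and EC_IMMAT in the injured one (25.25%, 14.1% of cells). The 6 intact cells rich in mural genes had 66.7% EC_ neighbours, and the 3 intact cells with fibroblast UMIs had 97.8% unclassed neighbours.

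Of single genes in the intact library, the 12 highest ratios over EC_ cells under the rule for named genes (at least 100 CPM, 30 UMIs and 10% of cells) were led by Dcn, Igfbp6 and Rgs5. Igfbp6, an IGF binding protein, was at 971 against 49.8 CPM (19.5-fold, 14.6 to 25.9), with 59.7% of its 72 UMIs in 1 cell. Phlda1 was 6.61-fold higher, at 526 against 79.6 CPM in 10 cells, and Gadd45b, a stress response gene, 3.16-fold, at 607 against 192 CPM. Others were Mt1 (1.94-fold), a metallothionein, Cyr61 (1.91-fold), Acta2 (1.90-fold), Nr4a1 (1.86-fold), Capns1 (1.79-fold) and Atp5a1 (1.79-fold). Only 5 of the 12 were past 2-fold. Against EC_ cells of like depth 12 of 12 kept the direction, and Acta2 went from a log2 ratio of 0.90 to 0.04. For Nr4a1 the direction turned after thinning to 2000 UMIs, and for Acta2 as a mean of per-cell values.

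The 12 lowest in the intact library rested on 0 or few UMIs in INTERMEDIATE cells. Chp2, Txnl1 and Ctsh had no UMI, which allows ratios of at most 0.319, 0.385 and 0.397. Col15a1, a basement membrane collagen, had 1 UMI (13.5 CPM) against 196 CPM in EC_ cells, a ratio of 0.0688. Clec14a, an endothelial surface lectin (0.0808), and Tmem252 (0.0948) also had 1 UMI each, as did Smagp, Rer1, Timp4, Rasa4, Osmr and Fgl2. For Tmem252 the direction turned against EC_ cells of like depth (log2 ratio 0.53 in place of -2.70).

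In the injured library, Dcn was followed by Mir6236 and Lars2 of the ribosomal RNA group. Mir6236 was 6.17-fold higher (392 UMIs in 59 of 80 cells) and Lars2 4.66-fold (229 UMIs in 56 cells). Zcchc7 (2.88-fold), Rbm5 (2.85-fold) and Ddx17 (2.33-fold), which encode RNA binding proteins, Ccnl2 (2.68-fold), a cyclin of splicing, and Numa1 (2.67-fold), a protein of the nucleus and spindle, came next, with Gpcpd1 (2.51-fold) and Mctp1 (2.23-fold). Clu (2.18-fold) and Slc6a6 (2.19-fold) had 73.2% and 66.7% of their UMIs in 1 cell, and without the deepest cell both were lower than in EC_ cells (log2 -0.56 and -0.24).

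Against EC_ cells of like depth these 12 kept the direction but only Dcn, Mctp1 (log2 1.75) and Gpcpd1 (1.44) were at least 2-fold higher. Lars2 went from a log2 ratio of 2.17 to 0.35 and Mir6236 from 2.58 to 0.72. Among cells with under 5% mitochondrial UMIs Rbm5 and Mctp1 were lower than in EC_ cells (log2 -0.29 and -1.83). The excess over EC_ cells was thus smaller for 9 of the 12 when EC_ cells were limited to those of like depth.

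The lowest genes of the injured class were of other kinds. Hist1h2ap, a replication histone (0.0914), Stmn1, a tubulin regulator (0.312), Tubb4b, a tubulin, Ranbp1 and Cetn3, a centriole protein (0.298), were below EC_ cells, and Stmn1 was nearly level with EC_ cells of like depth (log2 -0.21 in place of -1.56). Chga (0.0815), Rgcc, a capillary gene (0.183), Lxn (0.196), Fabp5, a fatty acid binding protein (0.237), Igfbp3 and Sept4 were the rest with Bst2. Bst2, the interferon-induced tetherin, was at 126 CPM (18 of 80 cells) against 520 CPM. Against EC_ cells of like depth 11 of these 12 remained at least 2-fold lower.

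Further gene lists differed from EC_ cells to a smaller degree. Genes of endothelial to mesenchymal change are a list of transcription factors, TGF-beta signalling and mesenchymal genes. Their summed level was lower in both libraries (0.765 and 0.549), with Vim, the filament vimentin, at 0.645 and 0.398 times. Of 11 intact members past the filter 0 were at least 2-fold lower and 1 was higher (all genes 5.77% and 6.23%). Of 7 injured ones 2 were lower and 0 higher (all genes 5.38% and 3.35%). The median log2 ratios were -0.09 and -0.17, where all genes had 0.04 and -0.09. Antigen presentation genes were lower too (0.719 and 0.630), as were endothelial junction genes (0.807 and 0.841). Lipid handling genes were at 0.378 and 0.754 times, but Apod, an apolipoprotein, was 36.2-fold and 42.3-fold higher. Basement membrane genes were near level (0.834, 0.686 to 1.01, and 1.05, 0.996 to 1.10). Complement and chemokine genes had ratios of 1.10 and 1.70, and in the injured library the 71 UMIs of Ccl2 and 22 of Ccl7 lay in 1 cell each.

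The injured and intact INTERMEDIATE cells were compared with each other as 2 sums of cells, beside the same ratio in EC_ cells. Of 3160 genes past the filter 11.7% (371) were at least 2-fold higher and 13.7% (434) at least 2-fold lower in the injured class. Mural genes were at 0.154 times the intact level (0.121 to 0.196), where EC_ cells had 0.490, and 8 of 9 that passed the filter were at least 2-fold lower. Without the 6 intact cells rich in mural and endothelial genes the ratio was 0.305 (0.2197 to 0.428). Barrier genes were at 0.241 times (0.204 to 0.285) and in EC_ cells at 0.235 times, with 8 of 9 at least 2-fold lower, among them Slc2a1 at 0.133, Cldn5 at 0.241 and the efflux pump Abcb1a at 0.368 times. Without the same 6 cells the barrier ratio was 0.439 (0.347 to 0.559), so its nearness to the EC_ value rested on them.

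Venous genes were 3.03-fold higher in the injured class (2.40 to 3.87) and 1.37-fold in EC_ cells, with 6 of 8 at least 2-fold higher. Without the 6 cells the venous ratio was 2.01 (1.55 to 2.63). Selp was 4.65-fold (2.29 to 11.04) and Lrg1 4.64-fold (2.88 to 7.95) higher, Aplnr, the apelin receptor, 3.43-fold, and Nr2f2, the transcription factor of venous identity, 1.22-fold. Basement membrane genes were 4.26-fold higher (3.51 to 5.21) and in EC_ cells 3.39-fold, with 8 of 12 at least 2-fold higher. Col4a1 went from 351 to 2282 CPM (6.51-fold, 4.39 to 10.1), Col18a1 from 40.5 to 554 CPM (13.7-fold, 4.58 to 67.3) and Hspg2, perlecan, from 162 to 702 CPM. The EC_ ratios of Col4a1 and Col18a1 were 5.69 and 8.76, so the INTERMEDIATE and EC_ values lay on the same side.

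Immediate early genes, which respond within minutes to stimuli such as tissue dissociation, were at 0.308 times the intact level (0.290 to 0.328) and in EC_ cells at 0.391 times, with 16 of 17 at least 2-fold lower. Fos went from 5774 to 1516 CPM, Junb was at 0.286, Klf2, a flow response gene, at 0.305 and Jun at 0.386 times. The pan-endothelial sum was level between the libraries in INTERMEDIATE cells (1.01) and at 0.719 times in EC_ cells. Without the 6 cells these ratios of INTERMEDIATE cells were 0.446 (0.411 to 0.484) for immediate early and 1.27 (1.12 to 1.44) for pan-endothelial genes.

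Of single genes, Atp8b1 had 52 UMIs in 29 injured cells and none in the intact class (at least 5.56-fold higher), and Mmp14, a membrane protease (at least 4.07-fold), Tpt1-ps3, Fblim1, Ugcg and Ptpn1 had no intact UMI either. Col15a1 was 38.8-fold (6.84 to 1547, 121 UMIs in 43 cells), Gda 25.7-fold, Tmem252 17.3-fold and Mctp1 15.1-fold higher, on 1 or few intact UMIs. Tpt1-ps3 is a pseudogene, and its reads can stem from its parent gene. Lower in the injured class were Igfbp6 (0.0312), Isg15 (0.0438, from 594 to 26.0 CPM), an interferon response gene, Acta2 (0.0472), Rgs5 (0.0580), Ptn, the growth factor pleiotrophin (0.0609), Fmo2 (0.0642), Gas6 (0.0702), Spock2 (0.0719), Mt1 (0.107), Slc2a1, Rgs16 (0.135) and Gadd45b (0.143). Several were as far apart in EC_ cells, with Ptn at 0.0707, Fmo2 at 0.0366 and Spock2 at 0.0508 times. All 24 genes named for this comparison kept their direction in each alternative tried for them, and Igfbp6 went from a log2 ratio of -4.61 to -0.26 among cells with under 5% mitochondrial UMIs.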

How the data were processed

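UMI counts per gene and barcode, with no normalization, were deposited by the authors for both libraries with a table of classes for 2301 cells. The matrices were written by software of version 3.0.2, per the file headers. The submitters' processing notes list Cell Ranger 6.1.2 and 3.0.2, Seurat 4.0.1, mm10 and GRCm38. The filtering of barcodes, treatment of doublets and making of classes are not given in the sources used here. From 53379 gene IDs 50604 were found with the same version in GENCODE M21, which gave the positions.

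All barcodes were read, with no further filter on cells. CPM were computed as a gene's UMIs over all UMIs of the pooled cells of a group. Intervals at 95% were exact Poisson for CPM, Clopper-Pearson for shares and conditional binomial for ratios. A sum of 0 was set to a limit of 3 counts over the group. Across genes, a mean of at least 50 CPM was required, 10 CPM were added before log2 ratios, and a difference of 2-fold was counted. Thinning drew 2000 UMIs per cell (also 1000). Neighbours came from 2000 variable genes and 30 principal components of each library. Scrublet called 3 of 1618 and 4 of 2023 barcodes doublets, no INTERMEDIATE cell among them. So few calls do not show that the caller worked, and doublets may remain. All were kept. The 6 intact cells rich in mural and endothelial genes had doublet scores of 0.065 to 0.099. Intact EC_ cells had an upper quartile of 0.056 and a highest score of 0.441. The injured cell of 29330 UMIs scored 0.249, and the highest injured EC_ cell 0.214. Median scores of INTERMEDIATE and EC_ cells were 0.049 and 0.037 in the intact library, and 0.043 and 0.064 in the injured one. Whether the named cells were doublets was not tested.

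The members and the 22 marker and 14 gene lists were chosen with earlier results of these data known. Genes were named by rank, 12 at each end of the log2 ratios. They needed 100 CPM, 30 UMIs and a UMI in 10% (and 5) of the cells of the group with more. Left out by this rule were genes of mitochondria, ribosomal proteins, globins, antibodies and sex chromosome controls, and predicted ones (Gm, Rik). Up to 4 members of a list with most UMIs could be named, and Dcn, Rgs5, Pecam1, Cdh5 and TdTomato always. A gene that the rule named is not reported here. The ribosomal RNA group and the kinds of cell told apart within the class were chosen after values were seen. The scripts were tested on simulated data. Python 3.11.15, numpy 2.4.6, scipy 1.17.1, pandas 2.3.3, scanpy 1.11.5, scikit-learn 1.9.0 and matplotlib 3.10.9 were used.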

Additional observations from a re-analysis of the deposited data

Results flagged for a closer look

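For 5 lists, the pan-endothelial markers among them, the ratio of INTERMEDIATE to EC_ cells lay on opposite sides of 1 in the intact and injured libraries, with neither 95% counting interval reaching 1. Other lists, such as the mural, tip and G2/M ones, also had ratios on both sides, but an interval that reached 1. The difference was not tested, since each condition was 1 library. The pan-endothelial list was at 0.758 in the intact and 1.07 in the injured library, the contractile list at 1.29 and 0.761, and the immediate early list at 1.17 and 0.921. The list of glycolysis and oxygen sensing was at 1.28 and 0.622, and that of retinoid and steroid enzymes at 1.29 and 0.603. The intact immediate early ratio was above 1 only with the cells rich in mural and endothelial genes. Without them (33 intact cells left) the intact immediate early sum was 20223 CPM, below the EC_ level.

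The INTERMEDIATE cells left out for a shared barcode carried some lists of other cell types at a level above that of the INTERMEDIATE cells kept in their library, and others below it. In the 9 intact cells fibroblast genes stood at 6614 CPM, with 424 of 440 UMIs in 1 cell of 22195 UMIs, and perineurial genes at 2195 CPM, with 121 of 146 UMIs in the same cell. In the 33 injured cells neutrophil genes stood at 5194 CPM, all 132 UMIs in 1 cell of 651 UMIs. Lymphatic genes stood at 1692 CPM (43 UMIs in 6 cells), and myeloid and leukocyte genes at 197 CPM each, 5 UMIs in 1 and in 2 cells. In the other direction, injured fibroblast genes stood at 354 CPM against 1555 CPM in the kept cells, and the intact adipocyte list at 256 against 2685 CPM.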

How the results depend on the processing

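Of the alternative values for results that answer a comparison, 97 stayed within the range that counts as the same, 81 moved and 2 turned direction. For single genes and other values it was 705, 101 and 10. Given in the order intact higher, intact lower, injured higher, injured lower (INTERMEDIATE over EC_), then injured over intact higher and lower, the counts of genes past 2-fold were 74, 73, 26, 45, 164 and 240 with 50 CPM added. With a minimum of 20 CPM they were 576, 500, 250, 304, 897 and 1002, with 100 CPM 57, 59, 37, 93, 133 and 207, with 500 CPM 3, 7, 13, 13, 15 and 37, and with no minimum 1245, 1690, 440, 528, 2235 and 1852. As a mean of per-cell CPM the first 4 were 409, 309, 209 and 278, the fibroblast ratios 20.7 and 12.8, the intact mural ratio 2.13 and the injured pan-endothelial ratio 0.996, and the log2 ratios of Acta2 -0.031, Clu -0.60 and Slc6a6 -0.37. Thinned to 2000 UMIs, the first 4 were 641, 349, 202 and 276, the last 883, and Nr4a1 -0.31.

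Under 5% mitochondrial UMIs, 357 and 313 genes were higher in the intact and injured class. The injured share was 1.98% and the ratio of shares 0.368. The pan-endothelial ratios were 0.857 and 1.00, the fibroblast ratios 2.39 and 115, the injured mural ratio 0.481, and Dcn was at -2.41 (intact), Rbm5 at -0.29 and Mctp1 at -1.83. Against EC_ cells of like depth, 349 genes were lower in the intact class, the pan-endothelial ratios were 0.668 and 0.794, the fibroblast ratios 20.5 and 13.7, the mural ratios 3.37 and 0.422, and Tmem252 0.53. With shared barcodes kept, 99 genes were lower in the injured class, the injured share was 7.87% and the intact fibroblast ratio 50.5. Without the cell with the most UMIs, the injured pan-endothelial ratio was 1.11, the fibroblast ratio 4.14, Clu -0.56 and Slc6a6 -0.24. With median-of-ratios scaling 110 genes were lower in the injured class.

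With at least 1000 UMIs the intact share was 2.99% and the ratio of shares 1.73. With at least 3000 the shares were 1.64% and 2.13%. Mixed cells were 30.8% of the intact class without thinning and 4.88% of the injured class with at least 3 genes of each side. Without the cells of at least 10 fibroblast UMIs the pan-endothelial ratios were 0.836 and 1.12 and the fibroblast ratios 3.22 and 1.60. Without the 6 intact cells rich in mural and endothelial genes the intact pan-endothelial ratio was 0.605, the fibroblast ratio 46.0 and the mural ratio 1.39, and the injured over intact ratios were 1.27 (pan-endothelial), 0.305 (mural), 0.439 (barrier), 2.01 (venous) and 0.446 (immediate early). The minimum of 500 CPM, EC_ cells of like depth and both removals of cells were chosen after seeing the data. The cause of these changes was not tested, except that a higher minimum leaves fewer genes. No replicates could be left out, since each condition was 1 library. Depth limits the intact class most, where 50 CPM is 3.71 UMIs, against 11.5 in the injured class.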
